A study of Mus musculus with 10 samples.

Results

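Heat shock proteins are molecular chaperones of the cytosol and of mitochondria, and 36 genes of this system are described here across splenic cell types and mice. They were taken by name from the gene rows of the count matrices, and all 36 were found among the 31053 genes measured. They form 7 sets. The 10 inducible chaperones are Hspa1a, Hspa1b, Hspb1, Hsph1, Dnajb1, Dnajb4, Dnaja1, Bag3, Serpinh1 and Hsp90aa1. The 7 genes of the constitutive HSP70 system are Hspa8, Hspa4, Hspa4l, Dnaja2, Dnajb6, St13 and Stub1. HSP90 and its co-chaperones are represented by 9 genes: Hsp90ab1, Chordc1, Ahsa1, Ahsa2, Stip1, Ptges3, Fkbp4, Cacybp and Cdc37. The 4 mitochondrial chaperones are Hspa9, Hspd1, Hspe1 and Trap1, and the cytosolic chaperonin CCT is represented by Cct2, Cct3 and Tcp1. The remaining members are the cold-responsive genes Cirbp and Rbm3 and the heat shock factor Hsf1.

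The cells came from the spleens of BXD2 mice. This recombinant inbred strain develops autoimmune disease with spontaneous germinal centres (GC). The 3 BXD2-p19-/- mice lack p19, the subunit specific to interleukin-23 (gene Il23a), and mice 1 and 2 of them are labelled female and mouse 3 male. The 2 control mice are BXD2-WT and both labelled female, so all 5 mice share the BXD2 background. The labels give neither an age nor a day of tissue handling or capture, and each mouse gave a single library made with the 10x 5' kit. The labels name B and T cells as the source, without giving how they were separated.

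In a stressed cell the transcription factor HSF1 is released from chaperones, binds heat shock elements and switches on the inducible chaperones. HSP70 proteins bind unfolded stretches of polypeptide with the help of HSP40 (Dnaj) partners and nucleotide exchange factors, while HSP90 completes the folding of kinases and steroid receptors with a set of co-chaperones. Hspd1 and Hspe1 form the folding chamber of the mitochondrial matrix. Cirbp and Rbm3 encode RNA-binding proteins known for rising on mild cooling and falling on warming. Both groups are known to respond to temperature and stress while a tissue is processed.

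Promoter sequences were searched for the element that HSF1 binds. In the RefSeq promoter table of build GRCm38.p6, 29 of the 36 members had an entry reaching from 250 bases before to 50 bases after a transcription start. Hspa8, Hsp90aa1, Hsp90ab1, St13, Hspa9, Hsf1 and Rbm3 had none and were not searched. An element of 3 alternating units, that is GAANNTTC followed by NN and GAA or TTCNNGAA followed by NN and TTC, searched on both strands, was found in 5 of these 29 (17.2%) and in 179 of all 27025 genes of the table (0.662%). The shorter form of 2 units, GAANNTTC or TTCNNGAA, which every 3-unit element also contains, was found in 15 of the 29 (51.7%) against 17.0% of all genes. The 5 members were Hsph1, Chordc1, Hspd1, Hspe1 and Dnajb6. Hspd1 and Hspe1 are divergent neighbours that share the same bases, so they hold 1 such stretch between them. A match is a description of letters in a window and not a measured binding site. The inducible Hspa1a, Hspa1b, Hspb1 and Dnajb1 had no match of 3 units. A gene without a match can still hold an element outside the window or with other letters. The stretches below are shown because the first 3 belong to genes that passed the test between the genotypes in at least 1 cell class and the last to a gene that passed in none, with the elements in capitals.
Hsph1: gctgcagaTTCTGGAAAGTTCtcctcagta
Chordc1: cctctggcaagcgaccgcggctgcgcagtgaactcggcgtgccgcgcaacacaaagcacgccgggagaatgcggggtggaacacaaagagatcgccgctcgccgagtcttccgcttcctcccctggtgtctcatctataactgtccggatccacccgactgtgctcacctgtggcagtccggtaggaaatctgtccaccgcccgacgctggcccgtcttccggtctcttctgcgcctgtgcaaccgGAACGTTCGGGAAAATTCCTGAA
Hspe1: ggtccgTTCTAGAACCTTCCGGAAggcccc
Dnajb6: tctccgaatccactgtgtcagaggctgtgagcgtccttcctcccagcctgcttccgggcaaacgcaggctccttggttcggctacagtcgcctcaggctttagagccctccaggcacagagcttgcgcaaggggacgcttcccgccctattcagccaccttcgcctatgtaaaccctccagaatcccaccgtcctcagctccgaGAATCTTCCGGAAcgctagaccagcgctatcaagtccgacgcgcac
The Hsph1 stretch lies at chr5:149636279-149636308 on the minus strand, and the Chordc1 stretch at chr9:18292017-18292285 on the plus strand, where overlapping elements cover 23 bases across the start. The stretch named for Hspe1 lies at chr1:55088053-55088082 on the plus strand, and that of Dnajb6 at chr5:29735648-29735897 on the plus strand. Their elements lie upstream of an annotated start of the gene, and that of Hsph1 lies after it.

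The 5 libraries held 11355 barcodes and 69958493 UMIs, between 7712457 and 18093053 per mouse. No UMI of Il23a was counted in any of the 5, WT included, so its level checks no label. Barcodes with over 10% of their UMIs from mitochondrial genes made up 36.02% of the library of p19-/- mouse 1 and 9.17% to 13.2% of the other 4, so that library stands apart. Pairs of libraries shared 3 to 11 barcodes. After filtering, 9200 cells in 22 clusters were left, and the 36 members were kept out of the clustering. Clusters named from marker genes gave 7 classes with at least 20 cells in every mouse. They are GC B-like (3036 cells), mature non-GC B-like, CD4 T-like (3538 cells, which pool follicular helper (Tfh-like), regulatory (Treg-like) and other CD4 T cells), Tfh-like, Treg-like, CD8 T-like and macrophage or monocyte-like cells. Levels below are CPM, the UMIs of a gene scaled to 1000000 UMIs summed over the cells of a class in a mouse. In GC B-like cells these sums ran from 3480425 to 11100584 UMIs, in CD4 T-like cells from 1940203 to 3809489, and in CD8 T-like cells only from 133509 to 319933.

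Across cell types, GC B-like cells stood above mature non-GC B-like cells and above CD4 T-like cells in the summed level of each of the 6 sets with more than 1 gene in 5 of 5 mice. In that comparison the inducible chaperones were 2.47 to 3.33 times as high in GC B-like as in mature non-GC B-like cells of the same mouse. The CCT subunits were 1.63 to 1.92 times as high in that comparison, and the mitochondrial chaperones 1.43 to 1.82 times. Against CD4 T-like cells some margins were small. The ratios were 1.01 to 1.60 for HSP90 and its co-chaperones and 1.07 to 1.29 for the constitutive HSP70 system, but 1.58 to 1.89 for the CCT subunits. Among T cells, Treg-like stood above Tfh-like cells in each of these sums in 5 of 5 mice, by 1.10 to 1.33 times for the inducible chaperones. The classes are clusters of the same cells, so these orders are descriptions with no test.

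Single members followed several orders. Hsp90aa1, the stress-inducible HSP90, averaged 1177 CPM over the 5 mice in GC B-like cells, and there it exceeded Treg-like cells (743 CPM), the next class, in 5 of 5 mice. Hsp90ab1, the constitutive HSP90, averaged 4365 CPM in GC B-like cells and exceeded Treg-like cells (3676 CPM) in 4 of 5. Hspa8, the constitutive HSP70, averaged 2566 CPM in macrophage or monocyte-like, 2278 CPM in GC B-like and 2205 CPM in Treg-like cells, classes whose ranges overlapped. Hspb1, a small heat shock protein, followed another pattern: it averaged 53.4 CPM in Treg-like cells, above Tfh-like cells in 5 of 5 mice, against 12.6 CPM in Tfh-like and 1.93 CPM in GC B-like cells. Bag3, a nucleotide exchange factor for HSP70, averaged 29.8 CPM in macrophage or monocyte-like and 25.2 CPM in Tfh-like cells but 3.79 CPM in GC B-like cells. Hspa1a and Hspa1b, the classical inducible HSP70 genes, were close to 0 everywhere, with a highest single value of 16.0 CPM for Hspa1b in macrophage or monocyte-like cells of p19-/- mouse 1. These 2 genes are near-identical copies, so reads could be split between them or dropped by the counting, and their values are uncertain. Serpinh1, a collagen chaperone of the endoplasmic reticulum, held 19 UMIs in all libraries together. Here and below, values for the p19-/- mice are in the order 1, 2, 3 and those for the WT mice in the order 1, 2.

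**Figure D1:**
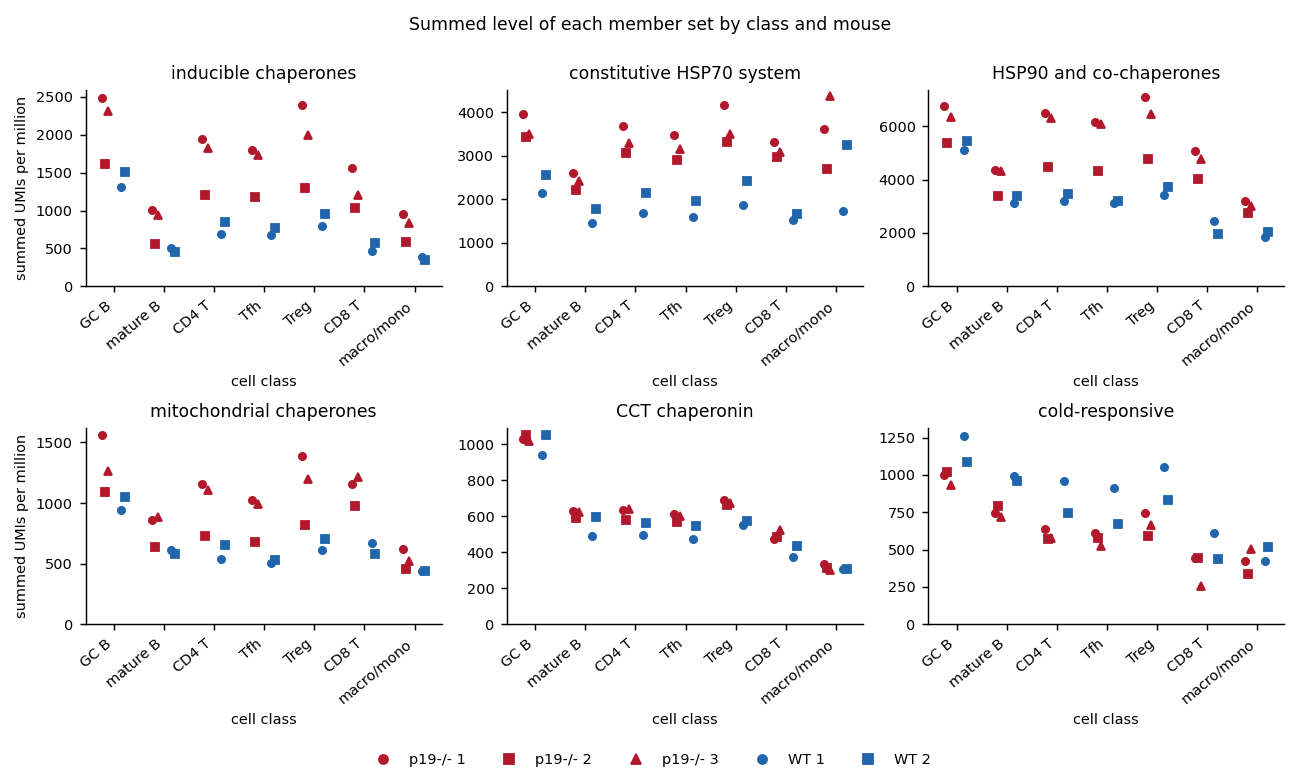
Summed CPM (y axis, from 0) of 6 member sets in 7 cell classes (x axis), 1 point per mouse, red for the 3 p19-/- and blue for the 2 WT mice. Within each mouse GC B-like cells lie above mature non-GC B-like cells in each panel, and the inducible chaperones of all 3 p19-/- mice lie above both WT mice in each class.

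In CD4 T-like cells, chaperones were higher and a cold-responsive gene lower in p19-/- than in WT mice. Of 33 members tested, 12 rose and 1 fell at an adjusted p under 0.05 (edgeR quasi-likelihood test, Benjamini-Hochberg over all genes), where 0.59% of the 10343 genes tested passed, 0.348% higher and 0.242% lower. In 21 members each p19-/- mouse was above both WT mice, as for 12.3% of all genes. The members' median log2 fold change was 0.66, and that of all genes 0.00. The summed inducible chaperones were 1948, 1199 and 1832 CPM in p19-/- mice 1, 2 and 3 and 683 and 853 CPM in WT mice 1 and 2, which is 2.16 times as high on average. Without WT mouse 1 no member passed, without WT mouse 2 only 2 and without p19-/- mouse 1 only 4, while 20 passed without p19-/- mouse 2 and 9 without p19-/- mouse 3. The fits without a WT mouse hold a single WT mouse, here and in the other classes, and assume that it varies like the p19-/- mice. None of the 13 members changed direction in them, and Hsph1 had log2 fold changes of 1.59 without WT mouse 1 and 2.25 without WT mouse 2. With no filter on low counts 21 passed. For fits that leave out a mouse or the filter, here and in the other classes, the share of all genes that passed is not given. Their counts therefore show how the calls depend on the fit and not a change particular to the members. Mice are the replicates, so p-values set the genotype difference against the spread between mice of the same genotype, among these 5 mice.

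Among the inducible chaperones, 4 of 7 tested rose. Hsph1, a nucleotide exchange factor that helps HSP70 to dissolve aggregates, was at 241, 152 and 211 CPM in the p19-/- mice and at 42.7 and 68.3 CPM in the WT mice. The groups lay well apart, with a log2 fold change of 1.87 ± 0.22 (SE, adjusted p = 0.00496). Hspb1 was at 38.0, 20.1 and 50.7 CPM against 4.02 and 6.04 CPM, a log2 fold change of 2.88 ± 0.39 (adjusted p = 0.00862). Hsp90aa1 was at 1026, 537 and 948 CPM against 315 and 387 CPM, higher by 1.27 ± 0.24 in log2 (adjusted p = 0.0436). In p19-/- mouse 2 it was nearer to the WT mice than in the other 2. Dnaja1, an HSP40 partner of HSP70, was at 486, 372 and 483 CPM against 221 and 287 CPM (log2 fold change 0.83 ± 0.15, adjusted p = 0.0381). Dnajb1, another HSP40, was at 115, 90.2 and 108 CPM against 70.2 and 73.0 CPM, with no overlap but an adjusted p of 0.121. Bag3 was at 21.6 to 27.9 CPM in p19-/- and 25.7 to 27.3 CPM in WT mice, so its groups overlapped. Hspa1a and Hspa1b held too few UMIs for the test, with at most 6 UMIs of either in any mouse.

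In the HSP70 system, 2 of 7 genes rose. Hspa8 was at 2829, 2220 and 2459 CPM in the p19-/- mice and at 968 and 1392 CPM in the WT mice (log2 fold change 1.10 ± 0.16, adjusted p = 0.00979). Every p19-/- value was over 1.5 times the higher WT value. St13, which links HSP70 to HSP90, was at 258, 233 and 246 CPM against 148 and 152 CPM (log2 fold change 0.73 ± 0.10, adjusted p = 0.00862). The other 5 did not pass. Hspa4, Dnaja2, Dnajb6 and Stub1 had log2 fold changes between -0.05 and 0.08 with overlapping groups, and Hspa4l one of 0.66 (adjusted p = 0.159). Dnajb6, whose promoter is shown above with an element of 3 units, was at 96.7, 94.3 and 98.9 CPM against 95.6 and 107 CPM.

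HSP90 co-chaperones made up the largest set of changes, with 6 of 9 genes risen. Ahsa2, a homologue of the HSP90 ATPase activator, was at 115, 71.6 and 109 CPM in the p19-/- and 28.5 and 34.4 CPM in the WT mice (log2 fold change 1.67 ± 0.20, adjusted p = 0.00501). Ahsa1, the activator itself, was at 273, 173 and 244 CPM against 108 and 122 CPM (log2 fold change 1.02 ± 0.18, adjusted p = 0.0299). Stip1, the adaptor that passes clients from HSP70 to HSP90, was at 272, 165 and 247 CPM against 94.0 and 104 CPM (log2 fold change 1.23 ± 0.19, adjusted p = 0.0174). All 3 genes had their lowest p19-/- value in mouse 2 and no overlap with WT. Chordc1, an HSP90-binding protein whose promoter is shown above, was at 172, 141 and 166 CPM against 76.7 and 85.1 CPM (log2 fold change 1.00 ± 0.12, adjusted p = 0.00501). Ptges3, the p23 co-chaperone that holds the closed form of HSP90, was at 418, 341 and 385 CPM against 195 and 228 CPM, and Fkbp4, an immunophilin of steroid receptor complexes, at 222, 146 and 195 CPM against 91.9 and 107 CPM. Both rose, by 0.86 ± 0.12 (adjusted p = 0.00897) and 0.93 ± 0.17 (adjusted p = 0.0356) in log2. Hsp90ab1 was at 4647, 3115 and 4599 CPM against 2321 and 2449 CPM, without overlap, and missed the threshold (log2 fold change 0.80 ± 0.16, adjusted p = 0.0690). Cacybp did not pass either (log2 fold change 0.63, adjusted p = 0.141), and Cdc37, the adaptor for kinases, lay at 179 to 180.2 CPM in p19-/- and at 177 and 198 CPM in WT mice.

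Neither the mitochondrial chaperones nor the CCT subunits held a member that passed in CD4 T-like cells. Hspd1 was at 282, 202 and 283 CPM against 123 and 176 CPM (log2 fold change 0.79 ± 0.18, adjusted p = 0.119). Its co-chaperonin Hspe1 was at 748, 412 and 716 CPM against 318 and 358 CPM (log2 fold change 0.91 ± 0.22, adjusted p = 0.141). For both the groups did not overlap. Hspa9 and Trap1, the HSP70 and HSP90 of mitochondria, had log2 fold changes of 0.16 and -0.09. Cct3 had one of 0.57 (adjusted p = 0.0922), and Cct2 and Tcp1, subunits of the same ring, 0.13 and 0.11.

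The 2 cold-responsive genes pointed the other way. Cirbp fell: it was at 86.2, 91.7 and 70.6 CPM in the p19-/- mice and at 155 and 134 CPM in the WT mice (log2 fold change -0.80 ± 0.12, adjusted p = 0.0178). Rbm3 was at 548, 476 and 505 CPM against 806 and 610 CPM, without overlap, and did not pass (log2 fold change -0.46 ± 0.13, adjusted p = 0.241). Hsf1 itself was level, at 50.1, 52.6 and 54.5 CPM against 50.7 and 48.6 CPM. Its activity is controlled mainly after translation, which RNA counts do not measure.

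**Figure D2:**
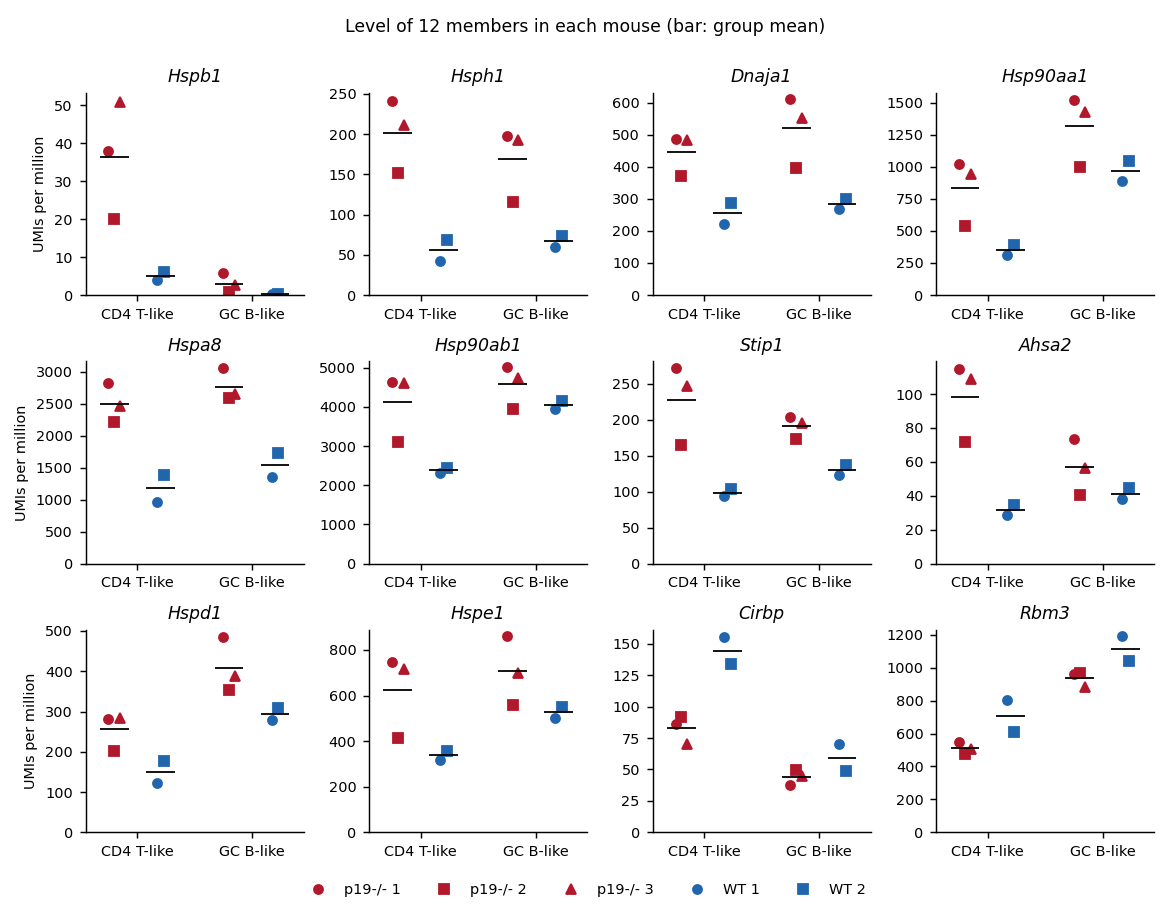
CPM (y axis, from 0) of 12 members in CD4 T-like and GC B-like cells, 1 point per mouse (red, p19-/-; blue, WT) with bars at the group means. In CD4 T-like cells the p19-/- and WT points are apart for each of the 12 genes, and Cirbp and Rbm3 are lower in p19-/- mice.

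Tfh-like cells, which are part of the CD4 T-like cells and share their UMIs, had 15 members risen and 1 fallen of 33 tested, where 0.546% of 8973 genes passed, 0.345% higher and 0.201% lower. In 23 members the p19-/- mice were all above the WT mice (11.1% of all genes). The members' median log2 fold change was 0.64 and that of all genes 0.01. The 12 members named for CD4 T-like cells had risen here too, and 3 more passed. Hsp90ab1 was at 4375, 2982 and 4412 CPM against 2271 and 2273 CPM (log2 fold change 0.81, adjusted p = 0.0498). Hspd1 was at 237, 167 and 250 CPM against 114 and 127 CPM (log2 fold change 0.89, adjusted p = 0.0416), and Hspe1 at 674, 411 and 634 CPM against 285 and 292 CPM (log2 fold change 1.02, adjusted p = 0.0390). These 2 mitochondrial partners lie side by side and share the element shown above. Hspb1 was at 21.9, 11.3 and 28.3 CPM in the p19-/- mice and at 1.33 and 0 CPM in the WT mice (adjusted p = 0.00971). That is 86 UMIs against 2, a ratio of rates of 36.7 with an exact 95% interval of 9.85 to 308 that covers counting error only. Cirbp fell from 184 and 144 CPM in WT to 93.8, 103 and 83.7 CPM in p19-/- mice (log2 fold change -0.79, adjusted p = 0.0249). Without WT mouse 1 only 6 members passed, without WT mouse 2 only 7, and without p19-/- mouse 1 or mouse 3, or with sex in the fit, 9. The 6 erythroid markers summed to 4.15 to 14.0 CPM in p19-/- and to 53.3 and 103 CPM in WT Tfh-like cells, without overlap and with 1 of 6 higher in p19-/- mice, and their part was not tested.

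Treg-like cells had 4 members risen of 33 tested, where 0.172% of 8741 genes passed, 0.114% higher. In 21 members the p19-/- mice were all above the WT mice (9.85% of all genes). The 4 were Hspb1, Hsph1, Hspa8 and Ahsa2. Hspb1 was at 96.9, 55.8 and 85.7 CPM against 10.2 and 18.5 CPM (log2 fold change 2.51 ± 0.30, adjusted p = 0.00532). Hsph1 was at 289, 184 and 220 CPM against 48.2 and 71.3 CPM (log2 fold change 1.97 ± 0.24, adjusted p = 0.00532). For both, the lowest p19-/- value was over 2 times the higher WT value. The members' median log2 fold change was 0.79, against 0.00 for all genes, and 29 of 33 were above 0. Hsp90aa1 was at 1339, 499.6 and 1019.7 CPM against 404 and 451 CPM and did not pass (adjusted p = 0.258). Cirbp was at 64.1, 90.6 and 58.9 CPM against 138 and 123 CPM (adjusted p = 0.0983). Without p19-/- mouse 2, 18 members passed, without p19-/- mouse 1 or mouse 3 only 1, without WT mouse 2 only 2, and without WT mouse 1 none. With DESeq2, 11 passed (0.214% of all genes). In Treg-like cells of p19-/- mouse 2 the 8 plasma cell markers summed to 1466 CPM, against 149 to 177 CPM in the other 4 mice, with 8 of 8 higher in p19-/- mice on average and none at 0. The 12 macrophage or monocyte markers were at 20.9 to 27.4 CPM in p19-/- and 16.8 and 19.5 CPM in WT Treg-like cells, with Adgre1, Ly6c2 and Fcgr1 at 0. Neither list overlapped between genotypes, and their part in the results was not tested.

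In CD8 T-like cells 5 members rose of 28 tested, where 0.282% of 3188 genes passed, 0.188% higher. In 18 members the p19-/- mice were all above the WT mice (9.41% of all genes). Hsph1 was at 209, 136 and 232 CPM against 21.7 and 59.6 CPM (log2 fold change 2.24 ± 0.39, adjusted p = 0.0152). Hsp90aa1 was at 825, 463 and 562 CPM against 204 and 179 CPM, and Hspa8 at 2654, 2333 and 2434 CPM against 1026 and 1141 CPM (adjusted p = 0.0152 for each). Hsp90ab1 and Stip1 rose as well, by 1.19 and 1.58 in log2 (adjusted p = 0.0266 and 0.0447). No member passed without WT mouse 1 or without p19-/- mouse 1, and none passed with a mitochondrial limit of 20%. The class had 23 to 57 cells a mouse. Its median UMIs per cell were higher in p19-/- mice (5489 to 5947) than in WT mice (4042 and 5102), its 8 B cell markers summed lower (13.6 to 34.4 against 47.6 and 124 CPM, Fcrla at 0) and its 8 plasma cell markers higher (112 to 135 against 68.8 and 95.3 CPM, Sdc1 and Tnfrsf17 at 0). The part of these in the results was not tested.

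In GC B-like cells no member passed, of 34 tested, where 0.019% of 10554 genes did. The edgeR test gave 19 members an unadjusted p under 0.05, as it did for 8.37% of all genes, and DESeq2 called 4 (0.399% of all genes). Without p19-/- mouse 2, 2 members passed, and with no filter on low counts 11. The members' median log2 fold change was 0.38 against 0.00 for all genes, 25 of 34 were above 0, and in 16 each p19-/- mouse was above both WT mice, as it was for 16.2% of all genes. Hsph1 was at 197, 115 and 193 CPM in the p19-/- and 60.3 and 73.5 CPM in the WT mice (log2 fold change 1.31 ± 0.24, adjusted p = 0.220). Hspa8 was at 3059, 2596 and 2653 CPM against 1356 and 1726 CPM (log2 fold change 0.82 ± 0.12, adjusted p = 0.110). Neither gene's groups overlapped. Dnaja1 and Stip1 did not overlap either, with log2 fold changes of 0.84 and 0.53 (adjusted p = 0.311 and 0.292). Both HSP90 genes overlapped: Hsp90aa1 was at 1519, 999 and 1432 CPM against 891 and 1045 CPM, and Hsp90ab1 at 5025, 3950.5 and 4748 CPM against 3950.5 and 4152 CPM. Hspd1 (log2 fold change 0.44) and Hspe1 (0.40) had no overlap and adjusted p of 0.516 and 0.595. Hspa1a was at 4.31, 0.761 and 1.89 CPM against 0.382 and 0.367 CPM, that is 39 UMIs against 7, and did not pass (adjusted p = 0.496). Rbm3 was at 959, 967 and 884 CPM against 1193 and 1040 CPM (log2 fold change -0.28, adjusted p = 0.496), and Cirbp overlapped.

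Mature non-GC B-like and macrophage or monocyte-like cells also had no member that passed, of 31 and 28 tested, and 0% of their 7213 and 4843 genes did. The edgeR test gave 13 and 9 members an unadjusted p under 0.05, as it did for 4.8% and 6.3% of all genes, and DESeq2 called 1 and 0 (0.0746% and 0.0152% of all genes). In 14 and 10 members the p19-/- mice were all above the WT mice (12.2% and 7.47% of all genes). The members' median log2 fold changes were 0.36 and 0.48. Without p19-/- mouse 2, 1 member passed in the former, and without WT mouse 2, 1 in the latter. In mature non-GC B-like cells Hsph1 was at 87.7, 35.3 and 98.8 CPM against 26.7 and 25.6 CPM (adjusted p = 0.744), and Cirbp at 48.4, 22.3 and 48.2 CPM against 90.8 and 67.9 CPM (adjusted p = 0.907). In macrophage or monocyte-like cells Hsp90aa1 was at 409, 312 and 384 CPM against 179 and 150 CPM (log2 fold change 1.22, adjusted p = 0.155), while Hspa8 overlapped, at 2164 to 3741 CPM against 1148 and 2715 CPM. Haemoglobin and other erythroid markers summed to 4157 CPM in macrophage or monocyte-like cells of WT mouse 1, against 68.0 to 766 CPM in the other 4 mice, with the groups overlapping. The 8 T cell markers there were at 82.4, 355 and 277 CPM against 90.7 and 7.16 CPM, overlapping, with 8 of 8 higher on average in p19-/- mice and none at 0. The part of either list was not tested.

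**Figure D3:**
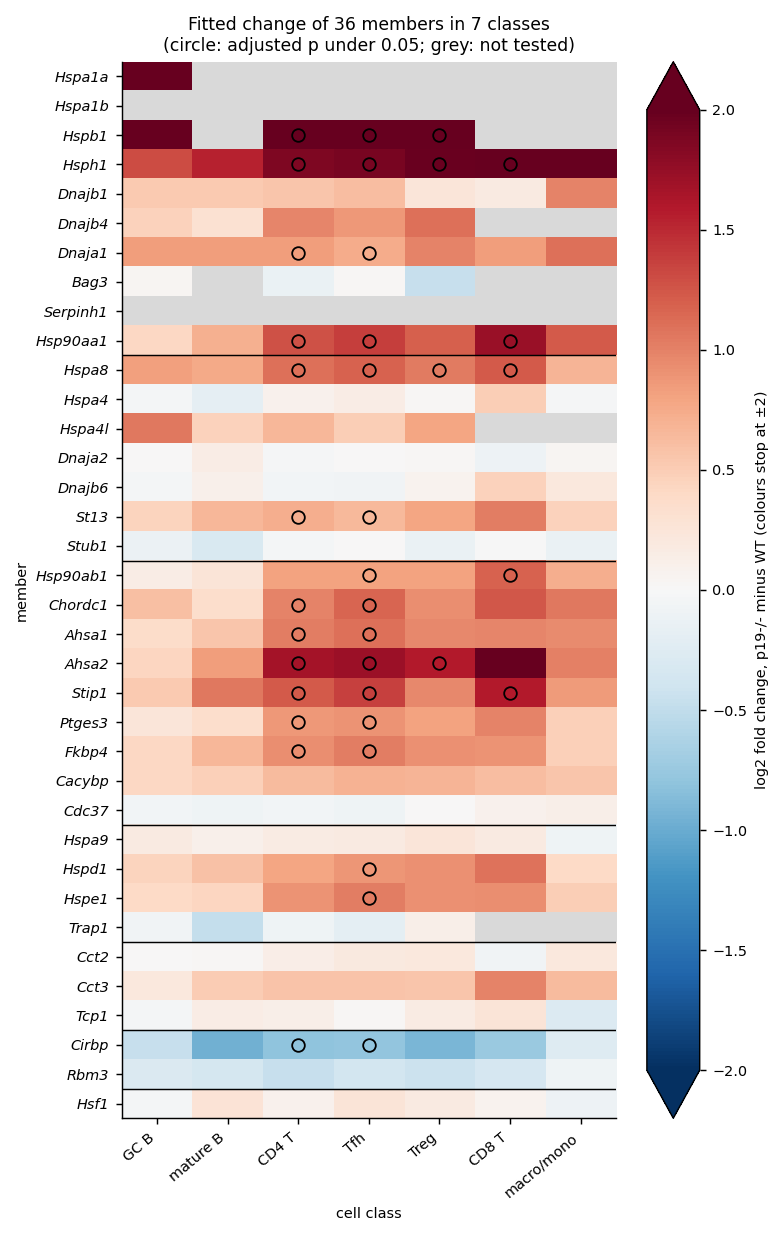
Fitted log2 fold change (p19-/- minus WT, colour, stopping at ±2) of the 36 members (rows, by set) in 7 cell classes (columns), with circles where the adjusted p is under 0.05 and grey where a gene was not tested. Red runs through 17 members in all 7 classes and blue through Cirbp and Rbm3, and the 38 circles lie in the 4 T cell columns.

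Over the 7 classes together, 17 members were above 0 in each: Hsph1, Dnajb1, Dnaja1, Hsp90aa1, Hspa8, St13, Hsp90ab1, Chordc1, Ahsa1, Ahsa2, Stip1, Ptges3, Fkbp4, Cacybp, Hspd1, Hspe1 and Cct3. Cirbp and Rbm3 were below 0 in each. The classes come from the same 5 mice and libraries, so 7 classes are not 7 independent observations. In 16 members at least 1 class passed, and of all 11838 genes tested in any class 0.65% did. The 20 other members include 2 that were tested in no class, Hspa1b and Serpinh1. Cdc37, Dnaja2 and Dnajb6 overlapped between the genotypes in each of the 7 classes.

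Whether the genotype difference itself was larger in CD4 T-like than in GC B-like cells was tested by an interaction term with the mouse as a block. None of the 33 members in that fit passed, and neither did any of 11136 genes (0%), in edgeR, the only tool run for it. Without p19-/- mouse 2, 3 members passed, without p19-/- mouse 1, 1 did, and with no filter on low counts 9. At an unadjusted p under 0.05 there were 13 members, and 12 of them had the larger value in CD4 T-like cells. The other was Cirbp (-0.39 ± 0.18), which was below 0 in both classes, so its fall was the larger in CD4 T-like cells. Of all genes 5.33% reached that p, and 1.96% did so with the larger value in CD4 T-like cells. The lowest adjusted p belonged to Ahsa2 (difference of log2 fold changes 1.23 ± 0.15, adjusted p = 0.0954), then Hsp90aa1 (0.80 ± 0.12, adjusted p = 0.145) and Hsp90ab1 (0.62 ± 0.10, adjusted p = 0.145). A difference between these cell types in the size of the change was thus not shown at the threshold.

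The p19-/- mice differed among themselves. In CD4 T-like cells mouse 2 was the lowest of the 3 for 12 of the 12 risen members. The risen members were picked by the test on these same values, so its place above both WT mice was largely set in advance. Genes of 1 library can vary together, so the counts of members here are not separate observations. The same orders were not counted over all genes. Mouse 1 was the highest for 11 of the 12 and mouse 3 for 1. WT mouse 1 was the lower of the WT mice for the same 12 of 12. In Tfh-like cells p19-/- mouse 2 was the lowest of the 3 for 15 of 15 and in CD8 T-like cells for 5 of 5. The rest of the order varied: p19-/- mouse 3 was the highest for 3 of 15 and 2 of 5, and WT mouse 1 the lower WT mouse for 11 of 15 and 2 of 5. The shares of barcodes over 10% mitochondrial were 36.02% in p19-/- mouse 1 and 9.17% in mouse 3, and their part in these levels was not tested. Mouse 2 shares its labelled sex with mouse 1 and with both WT mice.

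Other genes of protein folding were compared from lists that hold no member. Of the other HSP40 and HSP70 factors, 1 of 20 tested rose in CD4 T-like cells. This was Dnaja4, an HSP40, at 55.1, 31.4 and 52.5 CPM against 21.3 and 20.2 CPM (log2 fold change 1.20 ± 0.22, adjusted p = 0.0447). The list's median log2 fold change was 0.03. The 4 other CCT subunits tested had a median of 0.22 with 4 of 4 above 0 in CD4 T-like cells, and none passed. The other HSP90 co-chaperones (14 tested, median 0.02), prefoldin (6 tested, -0.04), the mitochondrial import factors and proteases (11 tested, 0.01), polyubiquitin and proteasome genes (12 tested, -0.09) and the other heat shock factors (3 tested, -0.02) had none passed in CD4 T-like cells. Of the chaperones of the endoplasmic reticulum and its unfolded protein response, 18 genes in CD4 T-like cells had a median of 0.07 and none passed, while in Tfh-like cells Hsp90b1, the HSP90 of that compartment, rose (225, 230 and 239 CPM against 144 and 170 CPM, log2 fold change 0.57, adjusted p = 0.0449). In GC B-like cells 18 of 18 of these genes were above 0 with a median of 0.14, and none passed. In 10 of the 18 each p19-/- mouse was above both WT mice, as for 16.2% of all genes. The edgeR test gave 5 an unadjusted p under 0.05, and 8.37% of all genes. Their sum there was 3058, 2852 and 2699 CPM in the p19-/- mice against 2421 and 2550 CPM, without overlap. Immediate early genes of tissue dissociation, such as Fos and Jun, had medians of 0.14 in CD4 T-like and 0.11 in GC B-like cells with none passed of 13 tested in each. Their medians were higher in mature non-GC B-like (0.49, 10 of 12 above 0), macrophage or monocyte-like (0.49, 10 of 10) and CD8 T-like cells (0.35, 8 of 10), again with none passed. In the first 2 of these classes no gene of any kind passed. The edgeR test gave 2 of 12 and 3 of 10 an unadjusted p under 0.05 there, and 4.8% and 6.3% of all genes. It did so for 2 of 10 in CD8 T-like, 1 of 13 in CD4 T-like and 0 of 13 in GC B-like cells. In the first 2 of these classes the members' own medians were 0.36 and 0.48. The part of these genes in the chaperone values was not tested. The immediate early sum was 2725 to 3325 CPM in p19-/- and 2713 and 2851 CPM in WT CD4 T-like cells, so the genotypes overlapped.

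The differences were also looked at within clusters, which vary in cell cycle. GC B-like cells pooled 4 clusters. Cluster 1 held Cd79b among its leading genes, cluster 3 was led by histone genes, cluster 7 by Cdc6 and Myc, and cluster 9 by the mitotic genes Cdc20 and Ccnb1. Hsph1 was lowest in cluster 1 and did not overlap between genotypes in any of the 4. Its mean was 111 against 37.5 CPM in cluster 1 (p19-/- against WT), 149 against 63.3 CPM in cluster 3, 167 against 82.9 CPM in cluster 7 and 296 against 85.6 CPM in cluster 9. Hspd1, by contrast, was highest in cluster 7, at 527 against 420 CPM, and lowest in cluster 1, at 205 against 140 CPM. The Treg-like cluster 2 held Hspb1 at 122, 57.0 and 97.9 CPM against 13.6 and 14.7 CPM, and the CD4 T cluster 5, led by Il7r among others, at 6.93, 6.70 and 17.7 CPM against 0 and 1.44 CPM. In the small Treg-like cluster 20, with 60 cells and 1 in p19-/- mouse 2, Hspb1 overlapped, at 7.14, 0 and 30.3 CPM against 0 and 33.8 CPM. Hsph1 overlapped there too, at 279, 105 and 178 CPM against 60.0 and 110 CPM. These values have no test, and cluster 9 had as few as 23 cells in a mouse.

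The mitochondrial share of a barcode's UMIs served as a check on handling, since damaged cells are known to lose cytosolic RNA. Within the classes the mitochondrial percentage of all UMIs overlapped between genotypes in each of 7 classes, with ratios of the means from 0.892 to 1.04. The classes held only barcodes of at most 10%, so likeness there was largely set by the filter. It says nothing of the barcodes over the limit, which were 36.02% in p19-/- mouse 1. All barcodes with T or B markers, those over the limit included, were then sorted by that share and the members counted as CPM of nuclear UMIs. In T-marker barcodes with 2.5 to 5% mitochondrial UMIs Hsph1 was at 237, 173 and 211 CPM in p19-/- and at 41.3 and 59.7 in WT mice. With 10 to 20% it was at 268, 291 and 405 against 66.7 and 74.1. The groups did not overlap up to 20% in either lineage, for Hsph1 or for Hspa8. Above 20% the B-marker barcodes overlapped for Hsph1, at 106 to 156 against 108 and 152 CPM, with 13 to 283 barcodes a mouse. The T-marker bin above 20% held only 3 to 12 barcodes a mouse and is not described. The summed inducible chaperones of B-marker barcodes overlapped from 10% upward.

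The summed level of Cirbp and Rbm3, to which Rbm3 gives most UMIs, was lower at a high mitochondrial share inside each mouse, which does not hold for Cirbp alone. In B-marker barcodes of p19-/- mouse 1 they summed to 1130 CPM up to 2.5% and to 318 at 10 to 20%, and in those of WT mouse 1 to 1208 and 683. In T-marker barcodes of WT mouse 1 they summed to 1107 and 667 at the same shares. Cirbp alone was at 27.4 CPM up to 2.5% and at 50.01 CPM at 10 to 20% in B-marker barcodes of p19-/- mouse 1, and at 101 and 167 CPM in T-marker barcodes of WT mouse 1. From the first to the 10 to 20% bin of T-marker barcodes it went from 66.9 to 35.8 CPM in p19-/- mouse 1. In the T-marker barcodes up to 10% the p19-/- mice lay at 558 to 632 and the WT mice at 750 and 977 CPM, without overlap, and above 10% they overlapped. The library of p19-/- mouse 1, with 663 B-marker barcodes over 10% against 49 to 193 in the other mice, had the highest immediate early sum in those barcodes, at 3278 against 1724 to 2200 CPM. Its B cells also differed in kind: an unnamed B cluster led by Sox4 and Pcp4 held 305 of its cells and 14 to 75 in the other mice. With the limit at 20% and new clusters, its GC B-like cells went from 237 to 579. The part of such B cells in the B-marker bins was not tested. The bins hold only the mitochondrial share roughly alike, and each bin compares the same libraries. The day of handling and the genotype of a library cannot be told apart in any bin, since each mouse gave 1 library.

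**Figure D4:**
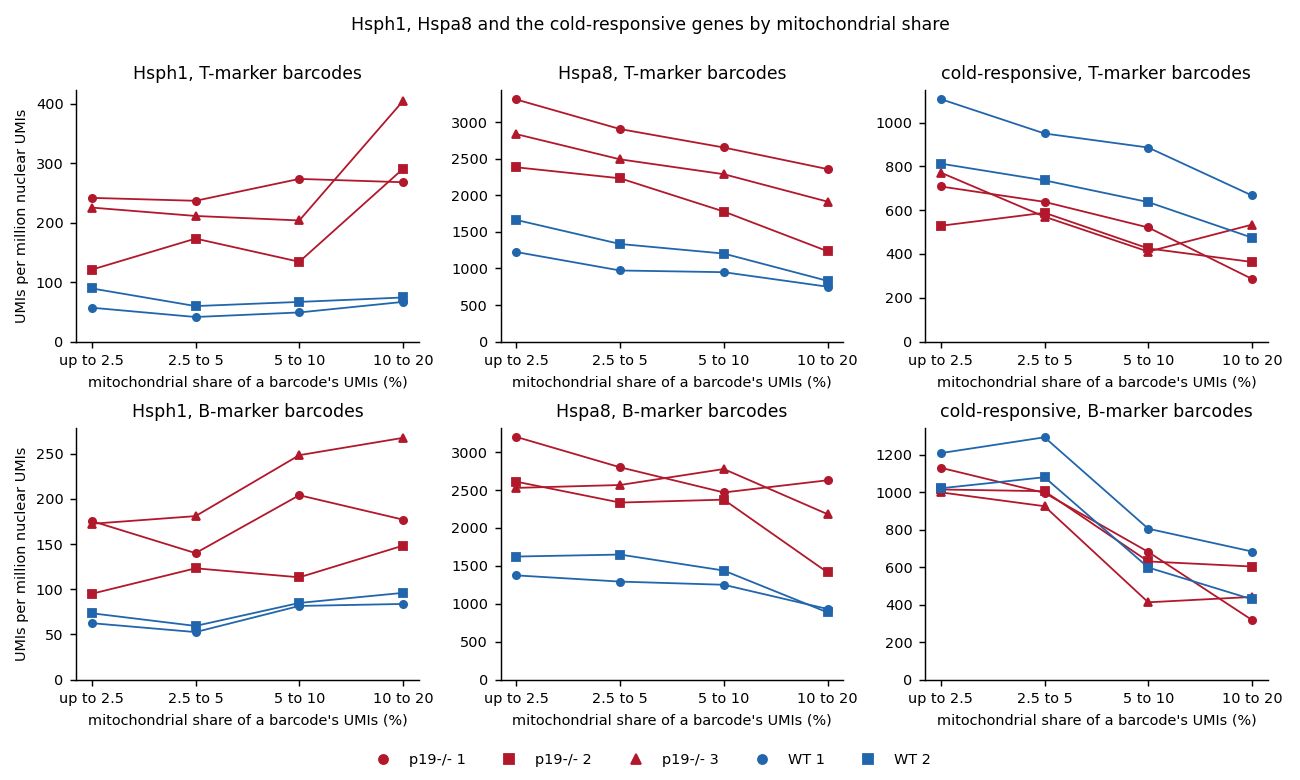
Hsph1, Hspa8 and the summed cold-responsive genes (y axis, CPM of nuclear UMIs, from 0) in bins of the mitochondrial share of a barcode's UMIs (x axis, %), for T-marker (top) and B-marker (bottom) barcodes, 1 line per mouse (red, p19-/-; blue, WT). The p19-/- lines for Hsph1 and Hspa8 stay above the WT lines in all 4 bins, and the sum of Cirbp and Rbm3 is lower in the last bin than in the first in each mouse.

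In CD4 T-like cells the summed level of the 33 chaperones differed at low, middle and high percentiles of the cells of a mouse. When each cell was thinned to 1500 UMIs, the median number of UMIs from the 33 chaperones was 20, 14 and 19 in p19-/- mice 1, 2 and 3 and 9 in both WT mice. The 10th percentiles were 11, 8 and 10 against 4 and 5, and the 90th percentiles 33, 23 and 31 against 15 and 17. The tenth of cells with the most chaperone UMIs held 18.4% to 19.8% of them in p19-/- and 19.4% and 20.6% in WT mice, so the chaperone UMIs were spread over cells to a like degree. In GC B-like cells the medians were 19, 15 and 19 against 12 and 14. Between 8 and 60 cells of a mouse and class held fewer than 1500 UMIs and were left out. Without thinning, the medians per 10000 UMIs in CD4 T-like cells were 133, 91.4 and 127 against 59.0 and 64.4. For the 10 inducible chaperones alone, the thinned medians there were 2, 1 and 2 UMIs against 1 and 1. Their 10th percentiles were 1, 0 and 0 against 0 and 0, so p19-/- mouse 2 equalled the WT mice in both. Cells without any such UMI made up 8.72%, 21.4% and 14.6% against 40.1% and 34.9%.

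**Figure D5:**
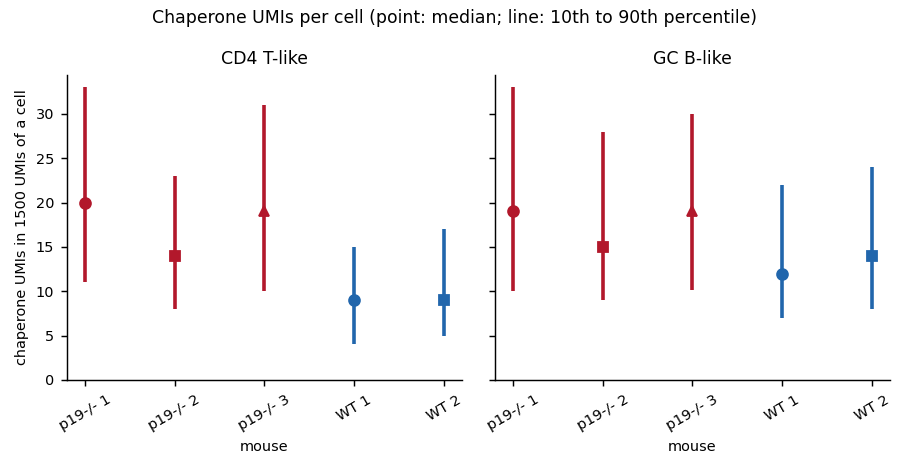
UMIs of the 33 chaperones among 1500 UMIs of a cell (y axis, from 0) in CD4 T-like and GC B-like cells of each mouse (x axis); points are medians over cells and lines run from the 10th to the 90th percentile (red, p19-/-; blue, WT). In CD4 T-like cells the 3 p19-/- medians (14 to 20) lie above both WT medians (9).

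Markers of other cells were counted in the same sums. In CD4 T-like cells the 6 erythroid genes summed to 3.17 to 15.9 CPM in p19-/- and to 41.1 and 53.6 CPM in WT mice, without overlap. Of the 6, 1 was higher in p19-/- mice. The 8 B cell markers (39.7 to 189 against 60.9 and 99.3 CPM), the 12 macrophage or monocyte markers (41.5 to 46.2 against 22.6 and 48.6 CPM) and the 8 plasma cell markers (142 to 424 against 135 and 232 CPM) overlapped there. In GC B-like cells the 8 plasma cell markers were at 2000 to 2330 CPM against 2564 and 2630 CPM, without overlap, with 1 of 8 higher in p19-/- mice and none at 0. The 12 macrophage or monocyte markers there were at 1.52 to 3.24 CPM against 4.11 and 8.32 CPM, with 4 of 12 higher and Fcgr1 at 0. The part of these markers in the chaperone differences was not tested.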

How the data were processed

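Single-cell RNA libraries of 5 mice were analysed, and B cell receptor libraries were not used here. The deposited values are counts, that is UMIs per gene and barcode, made by the authors with Cell Ranger 3.0.2 (STAR, mm10), per the submitters' processing notes. Barcodes with at least 200 genes and at most 10% mitochondrial UMIs were kept (9356), and 156 predicted doublets (1.67%) were removed at an expected 0.8% per 1000 cells. Cells were clustered in Python 3.11.15 with scanpy 1.11.5 (2000 variable genes, 20 components, 20 neighbours, Leiden resolution 1), leaving out the members and immunoglobulin, T cell receptor and sex-linked genes. Clusters were named from marker lists, and 4 clusters with 734 cells stayed unnamed. UMIs were summed per mouse and class and tested in R 4.3.3 with edgeR 4.0.16 (quasi-likelihood, TMM, filterByExpr, Benjamini-Hochberg over all genes tested), with DESeq2 1.42.0 as an alternative. Members called in any class and a fixed list of central members are given per mouse, and the rest by ranges. The members, lists and rules were chosen with earlier results of these data known. On simulated data, 95.5% of genes changed 2-fold were recovered in GC B-like (10554 genes) and 95.5% in CD4 T-like cells (10343 genes). Of genes changed 1.5-fold, 37.3% and 44.8% were recovered. The simulation drew each gene on its own, with no shift shared by the genes of a mouse. It therefore cannot give the recovery in the real data, and a member that did not pass is not shown to be unchanged. Intervals cover counting error only. Alternatives were other scaling, no filter, sex, replicate number, mitochondrial limits of 5% and 20%, and leaving out each mouse.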

Additional observations from a re-analysis of the deposited data

How the results depend on the processing

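None of the 38 member and class pairs that passed reversed in any of 12 alternatives. Of the other pairs, 18 in CD4 T-like or GC B-like cells were followed, and 1 of these reversed, Hsf1 in GC B-like cells, whose log2 fold change ran from -0.070 without p19-/- mouse 3 to 0.022 without p19-/- mouse 2. The cause was not tested. With DESeq2 the number of members that passed was 4 in GC B-like, 1 in mature non-GC B-like, 11 in Treg-like and 3 in CD8 T-like cells. With no filter on low counts it was 11 in GC B-like, 5 in mature non-GC B-like, 21 in CD4 T-like, 17 in Treg-like, 9 in CD8 T-like and 2 in macrophage or monocyte-like cells, and 9 for the interaction. With sex as a covariate it was 9 in Tfh-like and 1 in Treg-like cells. With a mitochondrial limit of 5% it was 2 in Treg-like cells, and with 20% it was 12 in Treg-like and 0 in CD8 T-like cells. Leaving out 1 mouse gave 0 to 20 in CD4 T-like, 6 to 18 in Tfh-like, 0 to 18 in Treg-like, 0 to 6 in CD8 T-like, 0 to 2 in GC B-like, 0 to 1 in mature non-GC B-like and in macrophage or monocyte-like cells, and 0 to 3 for the interaction. With the replicate block the number was 20 in CD4 T-like, 16 in Treg-like, 11 in CD8 T-like, 1 in mature non-GC B-like and 1 in macrophage or monocyte-like cells. Only 2 numbers are shared, and deviations of same-numbered mice from their group mean correlated weakly (0.0769 and 0.0754 in GC B-like, 0.138 and 0.137 in CD4 T-like cells). With 2 WT mice these deviations mirror each other, so the 2 values of a class are not independent. They neither show nor exclude a pairing. Counts of all genes that passed moved more: with no filter 343 passed in CD4 T-like and 224 in GC B-like cells, against 61 and 2. The share of all genes that passed is not given beside the other member counts of this section. A higher member count in an alternative is therefore not by itself a gain of the members. Few UMIs limit CD8 T-like, mature non-GC B-like and macrophage or monocyte-like cells, where fewer genes could be tested.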
